A study of Mus musculus with 12 samples.

Results

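Biliary and ductular genes were followed in bulk RNA sequencing of mouse liver lacking Gdown1, a subunit of RNA polymerase II encoded by Polr2m. Members were the rows named Sox9, Epcam, Prom1, Krt7, Krt19, Krt20, Krt23, Spp1 and Cftr in each count table, 9 of 23420 genes in all. All 12 libraries came from C57BL/6 liver, 2 for each of 6 groups. KO livers (7 weeks of age) were Gdown1 flox/flox with Alb-Cre, and FF livers (7 weeks) were Gdown1 flox/flox without Cre. DKO livers (8 weeks) were Gdown1 flox/flox with Alb-Cre on a p53-/- background, and p53KO livers (8 weeks) were Gdown1 flox/flox and p53-/-. DKO TAM livers carried Gdown1 flox/flox, the inducible Alb-CreERT2 transgene and the p53 null mutation, and p53KO TAM livers are labelled Gdown1 flox/flox and p53-/-; both were taken 24 hours after tamoxifen, with no age labelled. All groups thus carried the floxed alleles, and the control labels of the p53-null groups name no Cre. The albumin promoter drives Cre in hepatocytes, 4 of the 6 groups carried the p53 null mutation, labelled with no tissue-specific driver, and whole tissue was sequenced. Whether duct cells had also lost Gdown1 is not labelled. The labels do not say whether libraries of a group came from separate litters, so each p-value reflects only how far these libraries spread.

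Cholangiocytes line the bile ducts and, like hepatocytes, arise from embryonic hepatoblasts. In injured liver, small ductules expand at the edge of the portal tracts in what is called the ductular reaction, and hepatocytes themselves can switch on biliary genes such as Sox9 and Spp1. Sox9 is a transcription factor of biliary development, Epcam and Prom1 (CD133) are epithelial surface proteins used to isolate progenitor-like cells, Krt7 and Krt19 are the classical duct keratins, Krt20 and Krt23 are epithelial keratins, Spp1 is the secreted protein osteopontin, and Cftr is the chloride channel of the cholangiocyte apical membrane. Spp1 is also made by macrophages and Sox9 by some mesenchymal cells, and in bulk tissue more cells of a type and more RNA per cell cannot be told apart.

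The promoters of 4 members are printed as examples: Krt20, which had no read outside the p53-null livers with deleted Gdown1; its neighbour Krt23; Prom1, with the largest fold change among members read in both groups; and Spp1, the most abundant member. Each line holds the 250 bases before the annotated start, 5′ to 3′ on the gene's own strand, from RefSeq (GRCm38.p6). The table held 7 of the 9 genes (not Sox9 and Krt19). Krt20 lies on the minus strand (chr11:99438154-99438403), as do Krt23 (chr11:99493121-99493370) and Prom1 (chr5:44101737-44101986), and Spp1 lies on the plus strand (chr5:104434861-104435110).
Krt20: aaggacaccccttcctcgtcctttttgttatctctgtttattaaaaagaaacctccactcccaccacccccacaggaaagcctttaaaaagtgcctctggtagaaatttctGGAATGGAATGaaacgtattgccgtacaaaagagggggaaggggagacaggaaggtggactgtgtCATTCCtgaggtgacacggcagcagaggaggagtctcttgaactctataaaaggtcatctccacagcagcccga
Krt23: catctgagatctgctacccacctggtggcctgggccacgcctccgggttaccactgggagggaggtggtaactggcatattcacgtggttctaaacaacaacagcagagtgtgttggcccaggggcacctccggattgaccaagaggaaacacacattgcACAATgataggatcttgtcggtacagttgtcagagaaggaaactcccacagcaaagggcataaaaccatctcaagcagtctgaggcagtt
Prom1: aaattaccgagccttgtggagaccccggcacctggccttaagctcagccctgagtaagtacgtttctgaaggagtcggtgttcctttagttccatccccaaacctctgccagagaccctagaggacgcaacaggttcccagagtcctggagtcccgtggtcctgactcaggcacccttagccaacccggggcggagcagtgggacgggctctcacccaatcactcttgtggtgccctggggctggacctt
Spp1: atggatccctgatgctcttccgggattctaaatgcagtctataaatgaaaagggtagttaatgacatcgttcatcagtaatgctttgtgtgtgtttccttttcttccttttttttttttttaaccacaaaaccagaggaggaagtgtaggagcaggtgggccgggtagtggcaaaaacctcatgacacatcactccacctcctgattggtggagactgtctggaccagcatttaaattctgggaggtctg
Capitals mark matches to 3 short motifs searched on both strands in windows of 250 bases before to 50 bases after the start: the SOX core ACAAT, the RBPJ core GTGGGAA and the TEAD core GGAATG. In Krt20 the TEAD core begins at positions -139, -134 and -74 from the start, the first pair overlapping by their end base and the last match lying on the opposite strand, where it reads CATTCC. Of 32851 promoter windows of the same length, 14.7% held at least 1 TEAD core and 43 windows (0.131%) held 3 or more, a number chosen after Krt20 was seen. Krt23 held 1 SOX core at -90, a motif found in 31% of windows. The RBPJ core, found in 6.38% of windows, matched none of the windows searched for the 7 members. Those of Epcam, Prom1, Krt7, Spp1 and Cftr matched none of the 3 motifs. Prom1 and Spp1 had 2 windows each, and only the window nearest the deposited gene start was searched. These letters are a description of the windows, not of any binding.

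Library totals ran from 4939408 to 8776369 counts, so that the floor of 3 counts corresponded to 0.254 to 0.678 CPM, the depth-scaled read count, with library totals scaled by the trimmed mean of M values (TMM). Polr2m had 64.7 and 59.4 CPM in KO livers against 100.3 and 96.7 CPM in FF livers, 58.1 and 60.0 CPM in DKO against 89.1 and 102.7 CPM in p53KO, and 65.9 and 54.6 CPM in DKO TAM against 75.9 and 78.7 CPM in p53KO TAM. The targeted gene was thus lower in both libraries of each deleted group, with log2 fold changes of -0.67 and -0.70 at 7 and 8 weeks (adjusted p = 0.0024 and 2.4e-04, edgeR's quasi-likelihood test), while the difference of -0.36 after tamoxifen had an adjusted p of 0.063. Trp53 had 17.1 and 22.5 CPM in KO against 13.1 and 7.94 CPM in FF, 8.39 and 8.13 CPM in DKO against 3.07 and 2.79 CPM in p53KO, and 8.96 and 10.01 CPM in DKO TAM against 3.79 and 3.97 CPM in p53KO TAM. Trp53 was lower in p53KO than in FF livers (log2 fold change -1.81, adjusted p = 0.0087, same test). With deleted Gdown1 it was higher in KO against FF (0.93, adjusted p = 0.013) and in DKO against p53KO (1.48, 5.0e-04). The same held for DKO TAM against p53KO TAM (1.29, 0.0039). The DKO values lay within the FF range and below the KO values. Which part of the gene is deleted is not given in the sources used here, so these counts do not check the p53 label. In the mm10 coordinates of the files, Sox9 (chr11:112782210-112787757), Krt19 (chr11:100140811-100145919), Krt20 (chr11:99428403-99438153) and Krt23 (chr11:99477973-99493110) lie on chromosome 11, Prom1 (chr5:43993622-44101736) and Spp1 (chr5:104435111-104441053) on chromosome 5, and Epcam (chr17:87635979-87651127), Krt7 (chr15:101412403-101427806) and Cftr (chr6:18170687-18322769) on others; counts are over their exons. Of the 9 members, 8 passed the filter on low counts, and Krt7 did not. Krt20 passed it through the DKO libraries alone, so it had to differ there and adds nothing to a count of members.

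Summed over the 9 genes, biliary and ductular RNA was highest in DKO livers. The sum was 313 and 349 CPM in DKO against 56.0 and 59.8 CPM in p53KO, 112 and 161 CPM in KO against 147 and 82.2 CPM in FF, and 65.6 and 79.4 CPM in DKO TAM against 53.2 and 32.6 CPM in p53KO TAM. Both DKO libraries lay above every other library, the KO and FF libraries overlapped, and the DKO TAM libraries lay above those of p53KO TAM. Spp1 made up 42.3% to 81.7% of the members' counts in a library, so the sum is mainly a reading of osteopontin. Without Spp1 the sum was 111 and 127 CPM in DKO against 16.9 and 14.8 CPM in p53KO.

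**Figure D1:**
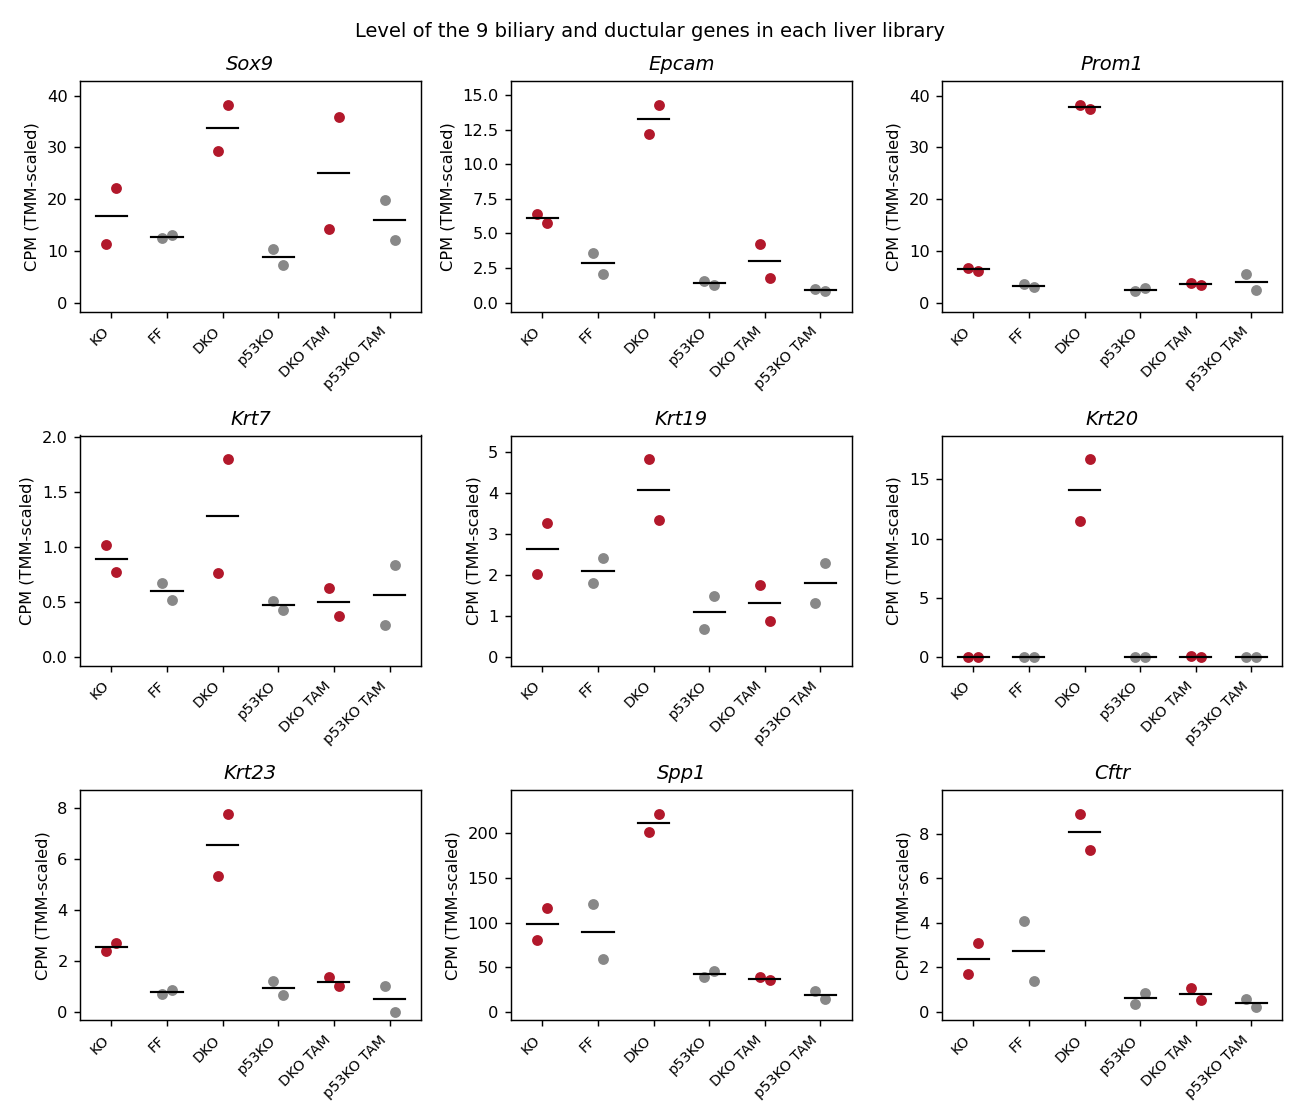
Level of each of the 9 genes (CPM, TMM-scaled, linear axes that differ between panels) in every library; points are libraries, red with deleted and grey with intact Gdown1, and bars are the means of 2. The DKO points stand above every other group for Prom1, Epcam, Krt19, Krt20, Krt23, Spp1 and Cftr, while 1 DKO TAM library reaches the DKO range for Sox9.

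In p53-null liver at 8 weeks, all 7 tested members other than Krt20 were called higher with loss of Gdown1. Krt20 passed the filter on low counts only through the DKO libraries and is given apart. The question there is what loss of Gdown1 through Alb-Cre does when p53 cannot act. The log2 fold change of the 7 members ran from 1.91 for Sox9 to 3.92 for Prom1, and no library of DKO overlapped one of p53KO for any of these 7. Beside this, 25.7% of the 13693 tested genes were called higher (25.7% lower, 51.4% in either direction) in the same comparison, and 39.7% had DKO libraries wholly above p53KO libraries. Genes were called at an adjusted p below 0.05 over all tested genes. The members' median log2 fold change without Krt20 stood 2.76 above the median of all genes.

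Sox9, the transcription factor, had 29.3 and 38.3 CPM in DKO livers against 10.4 and 7.29 CPM in p53KO livers, higher by 1.91 ± 0.52 on the log2 scale (± SE; adjusted p = 0.016). Every DKO value lay above both p53KO values. The call did not survive leaving out DKO 3 (adjusted p = 0.071), p53KO 1 (0.071) or p53KO 2 (0.105).

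Among the surface proteins, Prom1 had the largest log2 fold change of the 7 members with reads in both groups. It had 38.2 and 37.5 CPM in DKO against 2.22 and 2.79 CPM in p53KO, higher by 3.92 ± 0.27 on the log2 scale (adjusted p = 9.69e-09). The DKO libraries nearly coincided, and both lay far above the control pair. Epcam, the epithelial adhesion molecule, had 12.2 and 14.3 CPM in DKO against 1.54 and 1.29 CPM in p53KO (log2 fold change 3.20 ± 0.39, adjusted p = 3.81e-06). Its control level rested on 9 and 6 reads.

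The keratins differed widely in level. Krt20 had 135 and 195 reads in the DKO libraries (11.4 and 16.7 CPM) and 0 reads in both p53KO libraries. Against the floor of 3 counts over the p53KO group it was at least 49.3-fold higher as a bound, with no test. Outside DKO a single read fell in DKO TAM 1 and none in the other 9 libraries. Krt23, whose gene lies next to it on chromosome 11 (39819 bases apart, with 0 genes wholly between them), had 5.34 and 7.79 CPM in DKO against 1.195 and 0.643 CPM in p53KO (log2 fold change 2.77 ± 0.51, adjusted p = 2.47e-04). Its control level rested on 7 and 3 reads. Krt19, a duct keratin, had 4.83 and 3.34 CPM in DKO against 0.683 and 1.501 CPM in p53KO (log2 fold change 1.94 ± 0.49, adjusted p = 0.0035). Its groups did not overlap, but the call was lost without p53KO 1, which had 4 reads (1.42, adjusted p = 0.072). Krt7, the partner keratin of Krt19 in duct cells, had 9 and 21 reads in DKO against 3 and 2 reads in p53KO, at the limit of detection. With no filter on low counts its log2 fold change was 1.39 ± 0.74 (adjusted p = 0.146, 19235 genes tested), so a difference was not detectable at this depth.

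The files hold 52 keratin genes, of which 26 had 0 counts in every library and 8 were tested. Apart from Krt20, 5 of the other 7 rose in DKO livers and 0 fell, where 25.7% of all tested genes were called higher. Besides Krt19 and Krt23 these were Krt8 and Krt18, the keratin pair that hepatocytes also make, and Krt222, a keratin-like gene chosen here after its values were seen. Krt8 had 353 ± 62.2 CPM in DKO and 187 ± 14.6 CPM in p53KO (SD, n = 2 each; log2 fold change 0.92, adjusted p = 8.44e-05). Krt18 rose by 0.61 (adjusted p = 0.0033) and Krt222 by 3.60 (adjusted p = 7.0e-04). On chromosome 11, 27 keratin genes are annotated in the files and 5 were tested.

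Of the secreted and transport proteins, Spp1 had 202 and 222 CPM in DKO against 39.1 and 45.04 CPM in p53KO, higher by 2.34 ± 0.36 on the log2 scale (adjusted p = 7.83e-04). Both pairs were tight and far apart. Cftr had 8.90 and 7.27 CPM in DKO against 0.341 and 0.858 CPM in p53KO (log2 fold change 3.78 ± 0.55, adjusted p = 2.93e-05). Its p53KO level rested on 2 and 4 reads, and the pooled ratio of 14.2 had a counting interval of 6.399 to 39.1 (95%, exact; counting error only).

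Per exon length, the order of the members changed between the groups. In RPKM (CPM per kilobase of exon), DKO means ran from 128 for Spp1 over 9.22 for Prom1, 8.15 for Sox9, 7.29 for Krt20, 6.43 for Epcam, 4.27 for Krt23, 2.97 for Krt19 and 1.28 for Cftr to 0.807 for Krt7. Neighbours from Prom1 to Epcam lay close together, and their libraries overlapped in part. In p53KO livers Spp1 was again first (25.4 RPKM), followed by Sox9 at 2.14 RPKM, while Prom1 averaged 0.610 RPKM, Cftr 0.0951 RPKM and Krt20 was at 0. Krt7 and Cftr were thus the least abundant detected members in both groups, and the duct keratin Krt19 stood at 2.97 RPKM in DKO and 0.795 RPKM in p53KO.

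**Figure D2:**
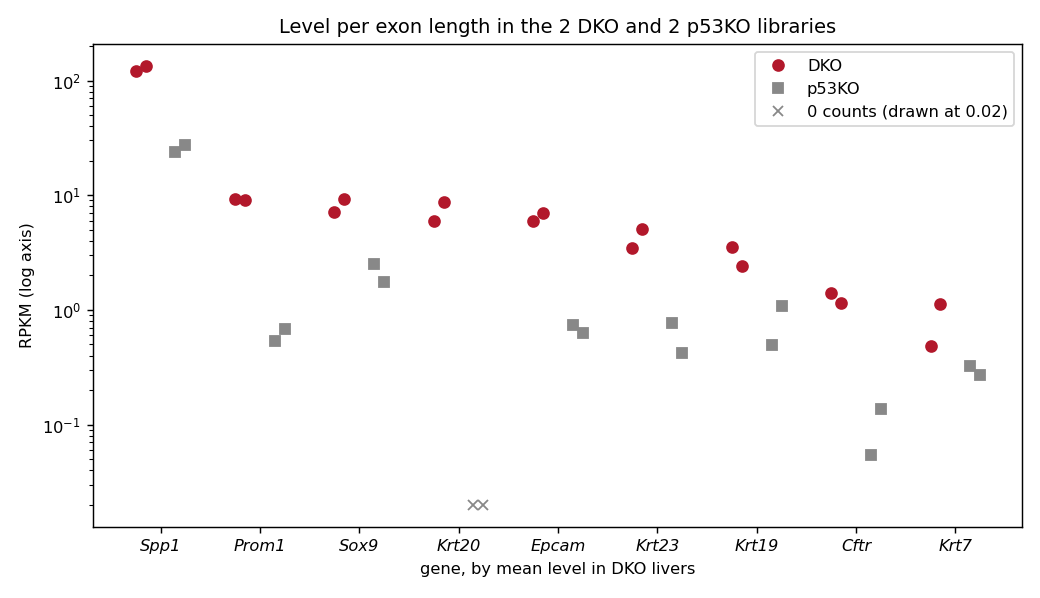
Level per exon length (RPKM, log axis) in the 2 DKO libraries (red circles) and the 2 p53KO libraries (grey squares), genes ordered by the DKO mean; crosses mark 0 counts. Spp1 stands above the other members in both groups, and Krt20 is read only in DKO.

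Markers of other cell types and of hepatocytes were set beside the members in the same DKO libraries, where 25.7% of all tested genes were called higher and 25.7% lower. Macrophage markers summed to between 1527 and 1636 CPM in DKO against 597 to 653 CPM in p53KO, and 15 of 17 rose. The lipid-associated macrophage genes Gpnmb (35.9 CPM in DKO, 0.429 CPM in p53KO) and Mmp12 (143 CPM in DKO, 0.622 CPM in p53KO) were among them. Stellate cell and fibroblast markers summed to 1614 to 1718 CPM in DKO against 480 to 485 CPM in p53KO, and 14 of 16 rose, among them the collagen gene Col1a1 (144 CPM in DKO, 12.4 CPM in p53KO). Trem2 among the 15 and Timp1 among the 14 averaged 3.33 and 3.16 CPM in DKO. In any other group they averaged at most 0.740 and 0.677 CPM, so both entered the test mainly through DKO. All 8 proliferation markers rose (sum 1102 to 1103 CPM in DKO against 58.8 to 67.6 CPM in p53KO). All 12 hepatocyte markers fell (40579 to 42886 CPM in DKO against 136339 to 139284 CPM in p53KO). With library totals alone 9 of the 12 hepatocyte markers were called lower and 0 higher. Neutrophil and lymphocyte markers rose in 2 of 6 tested (sum 21.3 to 24.6 CPM in DKO against 6.22 to 10.1 CPM in p53KO) and mesothelial markers in 2 of 5. With so few genes, these counts lie near the share of all genes called higher. Endothelial markers rose in 2 and fell in 3 of 10, also near the shares of all genes, summing to 594 to 694 CPM in DKO against 745 to 751 CPM in p53KO. That split turned with the scaling: upper quartile scaling gave 4 higher and 2 lower, and library totals alone 7 higher and 0 lower. The part of these cells in the members' levels was not tested.

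Several defining markers of pancreas and intestine had no reads in DKO livers. Of 12 pancreatic markers, 8 were at 0 in both DKO libraries and the rest summed to 3.39 to 3.85 CPM, against 7.51 to 9.73 CPM in p53KO. The intestinal transcription factors Cdx1 and Cdx2 and the brush border enzyme Sis had 0 reads in both DKO libraries, while the 8 intestinal markers summed to 63.8 to 72.7 CPM in DKO against 49.5 to 70.5 CPM in p53KO. Nearly all of that sum was Fabp2, a fatty acid binding protein of enterocytes (57.6 CPM in DKO and 57.6 CPM in p53KO, not called). Of the 4 intestinal markers tested 2 were called higher, Vil1 and Cdh17, where 25.7% of all tested genes were called higher. The microvillus protein Vil1, which bile duct cells also make, averaged 5.76 CPM in DKO and 0.449 CPM in p53KO, and the cadherin Cdh17 averaged 3.62 CPM in DKO and had 0 reads in p53KO. Cdh17 had at most 1 read in each other group. It passed the filter on low counts only through DKO, so it had to differ there and adds nothing to the count. Among 5 gallbladder markers, Gpx2 and Lypd2 were at 0 in both groups, and the list sum was lower in DKO (86.3 to 122 CPM, against 1489 to 1900 CPM in p53KO), nearly all of it Pigr, which hepatocytes also express.

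**Figure D3:**
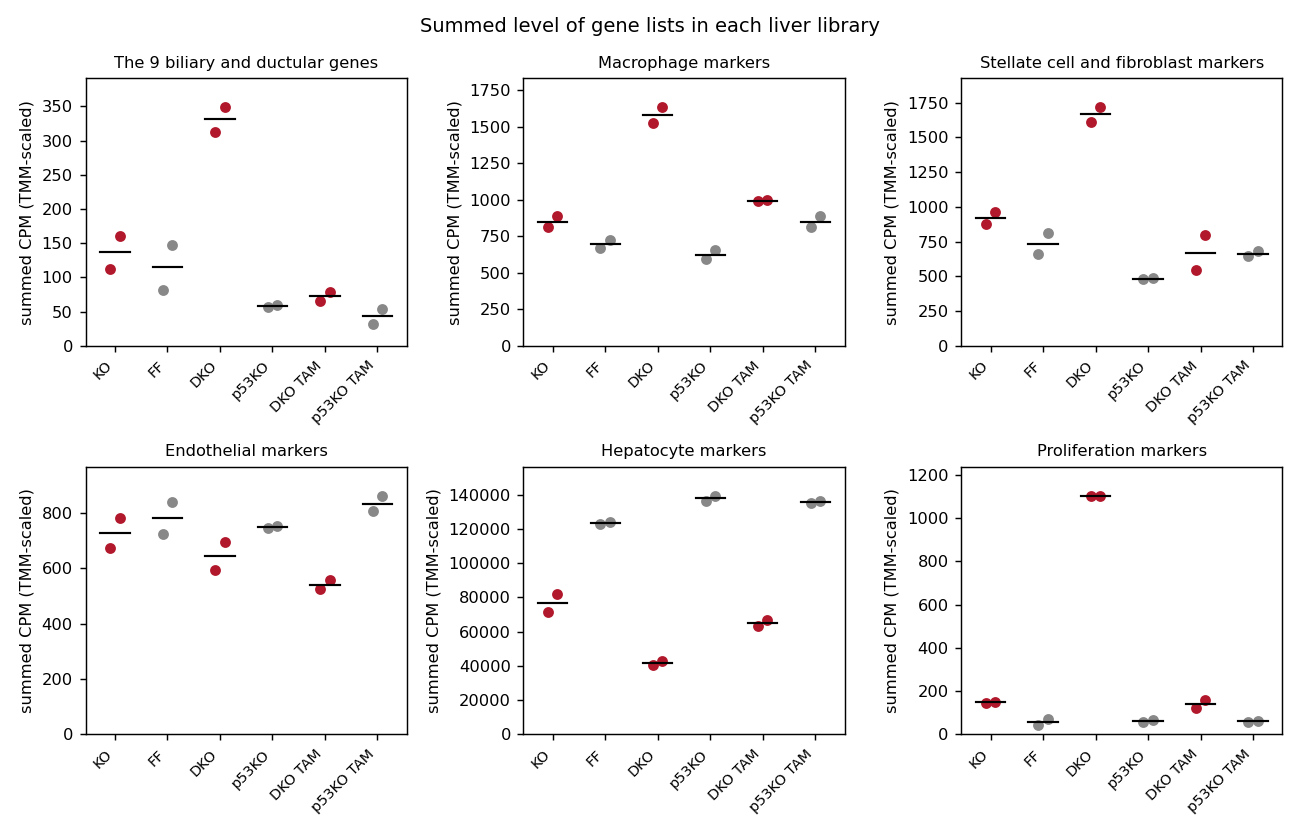
Summed level (CPM, TMM-scaled) of the 9 genes and of 5 marker lists in each library; points are libraries (red with deleted, grey with intact Gdown1) and bars are means of 2. Macrophage, stellate cell and proliferation markers are highest and hepatocyte markers lowest in the same DKO libraries in which the 9 genes are highest.

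The wider biliary programme was called higher in part. Of 28 other biliary epithelial genes tested, 16 rose, 2 fell and 10 were not called in DKO against p53KO, with a median log2 fold change of 0.60 beside 0.01 over all genes. In the same comparison 25.7% of all tested genes were called higher and 25.7% lower. Cldn4, among the 16, averaged 1.41 CPM in DKO and at most 0.363 CPM in any other group, so it entered the test mainly through DKO. Cd24a, a surface marker of progenitor-like cells, averaged 114 ± 13.8 CPM in DKO and 3.62 ± 1.25 CPM in p53KO (SD, n = 2 each; log2 fold change 5.01, adjusted p = 1.55e-06). The epithelial transcription factor Ehf averaged 38.6 CPM in DKO and 2.27 CPM in p53KO (4.12, adjusted p = 6.12e-05), and Sox4 averaged 42.1 CPM in DKO and 5.48 CPM in p53KO (2.95, adjusted p = 3.69e-06). Elf3, from the same family as Ehf, had 264 reads in DKO and 1 read in p53KO, a ratio of 118 with a counting interval of 21.0 to 4690. Bicc1, Muc1 and Slc5a1 rose by 2.48, 2.90 and 2.15.

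The other biliary epithelial genes did not move in 1 direction. Onecut1 (HNF6), which acts in hepatocytes and ducts, fell by 2.11 on the log2 scale (33.1 CPM in DKO, 143 CPM in p53KO; adjusted p = 0.016). Slc10a2, the apical bile acid transporter of cholangiocytes, fell by 3.03 (3.11 CPM in DKO, 25.6 CPM in p53KO; adjusted p = 1.67e-04). Sctr, Foxj1 and Ggt1 failed the filter on low counts. Scaling matters for this list: with library totals alone 24 of 28 were called higher, and that scaling moved the median of all genes by 0.77.

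Of 14 genes of the ductular reaction and tissue remodelling tested, 11 were called higher and 0 lower, where 25.7% of all tested genes were called higher, and their median log2 fold change was 2.58 beside 0.01 over all genes. One of the 11, Mmp7, a matrix protease of injured bile ducts, averaged 5.84 CPM in DKO and had 0 reads in p53KO and so passed the filter only through DKO, at least 20.5-fold higher against 3 counts over the group. Timp1 and Itgb8 averaged 3.16 and 3.19 CPM in DKO and at most 0.677 and 0.938 CPM in any other group. They too entered the test mainly through DKO, so the filter fixed part of the count of 11. Tnfrsf12a (Fn14), the receptor of TWEAK, a cytokine known to stimulate ductular cells, averaged 35.0 ± 11.01 CPM in DKO and 2.57 ± 0.00933 CPM in p53KO (log2 fold change 3.76, adjusted p = 1.42e-07). Anxa2 rose by 3.39, Plaur by 3.95 and Vim by 1.91. Several of these genes are also expressed by stromal and immune cells.

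Notch and YAP signalling are known to steer hepatoblasts and hepatocytes towards biliary fate. Of 13 Notch pathway genes tested, 4 rose and 0 fell in DKO, near the background of 25.7% of all genes called higher: the targets Hes1 (1.87, adjusted p = 4.96e-05) and Heyl (2.19, adjusted p = 1.02e-04), the receptor Notch3 and the ligand Dll1. Jag1, the ligand of the portal mesenchyme, averaged 17.9 CPM in DKO and 15.3 CPM in p53KO and was not called (adjusted p = 0.374). Of 12 YAP target genes, 6 rose and 1 fell, beside the same background. Axl, Fstl1, Ajuba and Gadd45b rose by 1.77, 3.11, 1.94 and 2.45, and Lats2 fell by 0.44. Ankrd1, among the 6, had 47 reads in DKO and at most 6 reads in any other group. It entered the test mainly through DKO, so the filter fixed part of the count of 6. All 7 tested oncofetal genes rose, with the fetal serum protein Afp at 66.9 CPM in DKO and 3.60 CPM in p53KO. Dlk1, among the 7, averaged 1.19 CPM in DKO and at most 0.271 CPM in any other group. It entered the test through DKO and adds nothing to this count. With library totals alone 12 Notch genes and 11 YAP targets were called higher, so their counts depended on the scaling.

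**Figure D4:**
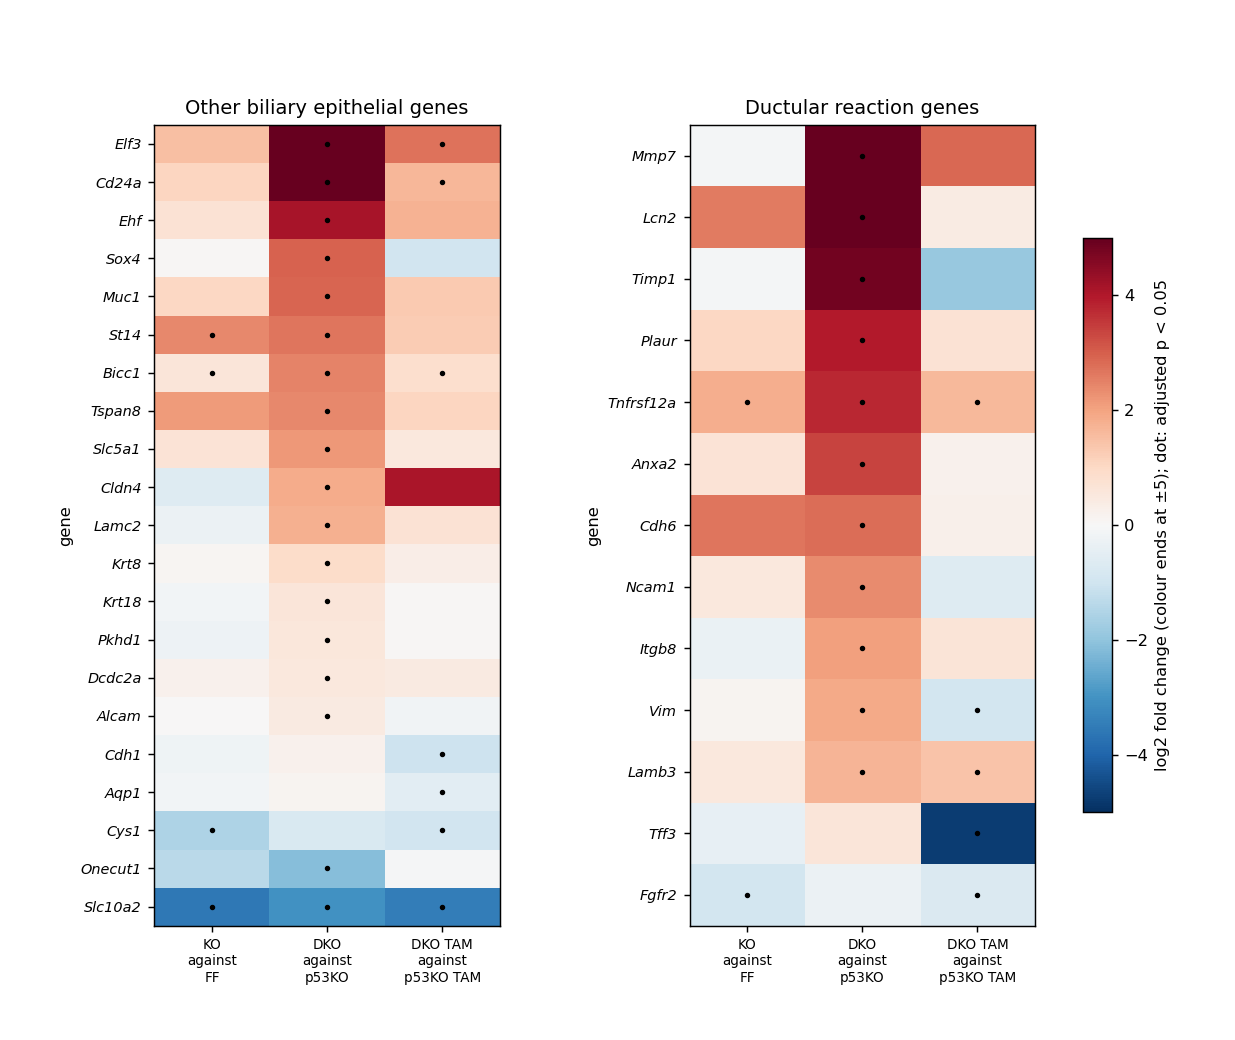
Log2 fold change (colour, ending at 5 in either direction) of the other biliary and ductular reaction genes called in at least 1 of the 3 comparisons of deleted with intact livers; dots mark an adjusted p below 0.05. Changes of genes with 0 reads in one group, such as Mmp7, depend on the fit's prior count; Slc10a2 is lower and Bicc1 and Tnfrsf12a are higher in all 3 columns.

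In p53-intact liver at 7 weeks, loss of Gdown1 left most of the members without a detectable difference. Of the 7 tested other than Krt20, which had no read in either group, 1 was called higher and 0 lower. In the same comparison 6.92% of all tested genes were called higher and 7.88% lower (14.8% in either direction). At an unadjusted p below 0.05, 3 members were higher. Prom1 was the called gene, with 6.78 and 6.15 CPM in KO livers against 3.62 and 2.94 CPM in FF livers (log2 fold change 0.995 ± 0.322, adjusted p = 0.047). The call stood at the threshold: it was lost with DESeq2 (adjusted p = 0.099), limma-voom (0.082) or only these 4 libraries (0.061), and without KO 1 (0.178), KO 2 (0.109), FF 1 (0.098) or FF 2 (0.261).

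Epcam had 6.44 and 5.77 CPM in KO against 3.62 and 2.07 CPM in FF (log2 fold change 1.14 ± 0.39, adjusted p = 0.061), and Krt23 had 2.37 and 2.69 CPM in KO against 0.678 and 0.864 CPM in FF (1.67 ± 0.64, adjusted p = 0.095). With Prom1, these 3 tested genes had KO libraries wholly above the FF libraries, as did 28.9% of all tested genes. So did Krt7, which was not tested (6 and 4 reads in KO against 3 and 3 in FF). Sox9 had 11.4 and 22.1 CPM in KO against 12.4 and 13.1 CPM in FF, and the groups overlapped. Spp1 had 80.6 and 117 CPM in KO against 120 and 58.9 CPM in FF, with a spread between FF libraries that spanned both KO values (log2 fold change 0.15 ± 0.34). Krt19 (2.03 and 3.27 CPM in KO, 1.81 and 2.42 CPM in FF) and Cftr (1.69 and 3.08 CPM in KO, 4.07 and 1.38 CPM in FF) overlapped as well. Krt20 had 0 reads in all 4 libraries, which allows up to 0.508 to 0.678 CPM in each.

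Among the other lists in KO livers, 2 of 28 biliary epithelial genes rose (St14 and Bicc1, by 2.40 and 0.59) and 2 fell (Slc10a2 and Cys1, by 3.57 and 1.54). In the same comparison 6.92% of all tested genes were called higher and 7.88% lower. The counts of the biliary epithelial, ductular reaction, Notch and YAP lists lie near these shares. Of 14 ductular reaction genes, Tnfrsf12a rose (7.39 CPM in KO, 2.11 CPM in FF; adjusted p = 0.0076) and Fgfr2 fell by 0.93. Notch1 was the called gene among 13 of the Notch pathway, at 113 CPM in KO and 45.4 CPM in FF (1.31, adjusted p = 1.79e-05), and Gadd45b among 12 YAP targets. Macrophage markers rose in 3 and fell in 1 of 17, summing to 813 to 886 CPM in KO against 672 to 722 CPM in FF, stellate cell and fibroblast markers rose in 2 of 16 (877 to 965 CPM in KO against 657 to 812 CPM in FF), and 8 of 12 hepatocyte markers fell. With library totals alone 11 macrophage markers were called higher and 1 lower, and 5 hepatocyte markers were called lower and 1 higher. Of 8 proliferation markers 6 rose (sum 145 to 151 CPM in KO against 42.1 to 71.4 CPM in FF). Their part in the members' values was not tested.

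At 24 hours after tamoxifen in p53-null liver, the comparison addresses early effects of deletion, and 1 member was called. Epcam had 4.27 and 1.75 CPM in DKO TAM livers against 1.02 and 0.835 CPM in p53KO TAM livers (log2 fold change 1.69 ± 0.49, adjusted p = 0.025). Both DKO TAM libraries lay above the controls, but they differed from each other by more than the controls did. The counts were 41 and 14 reads against 7 and 4 reads, and without DKO TAM 1 the log2 fold change was 0.88 (adjusted p = 0.322). The call was also lost without p53KO TAM 1 (0.124) or p53KO TAM 2 (0.118). In the same comparison 8.61% of all tested genes were called higher, 10.1% lower and 18.7% in either direction.

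Spp1 had 38.4 and 35.5 CPM in DKO TAM against 23.6 and 13.8 CPM in p53KO TAM, groups that did not overlap (log2 fold change 0.96 ± 0.38, adjusted p = 0.128; 30.2% of all tested genes had DKO TAM libraries wholly above). DESeq2 called it (adjusted p = 0.0091). Sox9 ranged widely within the deleted group, with 14.3 and 35.9 CPM in DKO TAM against 19.8 and 12.1 CPM in p53KO TAM (0.61 ± 0.48). Prom1 had 3.75 and 3.38 CPM in DKO TAM against 5.54 and 2.51 CPM in p53KO TAM, and its groups overlapped (-0.24 ± 0.31). Krt19 (1.77 and 0.876 CPM in DKO TAM, 1.31 and 2.30 CPM in p53KO TAM) and Cftr (1.04 and 0.501 CPM in DKO TAM, 0.583 and 0.209 CPM in p53KO TAM) stood near the floor and overlapped. Krt23 had 13 and 8 reads in DKO TAM against 7 and 0 reads in p53KO TAM, and Krt7 6 and 3 reads against 2 and 4.

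Of the 28 other biliary epithelial genes 3 rose in DKO TAM livers, Elf3, Cd24a and Bicc1 (by 2.72, 1.65 and 0.83), and 4 fell, Slc10a2, Cdh1, Cys1 and Aqp1 (by 3.45, 1.04, 0.97 and 0.52). With library totals alone 9 of these 28 were called higher and 2 lower. Over all tested genes 8.61% were called higher and 10.1% lower with TMM scaling, not far from the 3 and 4 of 28. Of the ductular reaction genes 2 rose (Tnfrsf12a by 1.64 and Lamb3 by 1.44) and 3 fell (Tff3, Vim and Fgfr2). In the Notch list 0 rose and 3 fell (Jag1, Heyl and Dll4), and of the YAP targets 0 were called. Macrophage marker sums were 992 to 997 CPM in DKO TAM against 811 to 887 CPM in p53KO TAM, and 7 of 12 hepatocyte markers fell while 1 rose. Of 17 macrophage markers 3 rose and 1 fell (11 and 1 with library totals alone). Hepatocyte markers gave 4 lower and 1 higher with library totals alone. Of 8 proliferation markers 6 rose (sum 121 to 160 CPM in DKO TAM against 58.5 to 62.4 CPM in p53KO TAM), and of 10 endothelial markers 4 fell and 0 rose (524 to 557 CPM in DKO TAM against 804 to 861 CPM in p53KO TAM). Of 4 intestinal markers 2 rose, Vil1 and Fabp2 (Fabp2 124 CPM in DKO TAM, 44.0 CPM in p53KO TAM). The part of these cells in the members' levels was not tested.

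**Figure D5:**
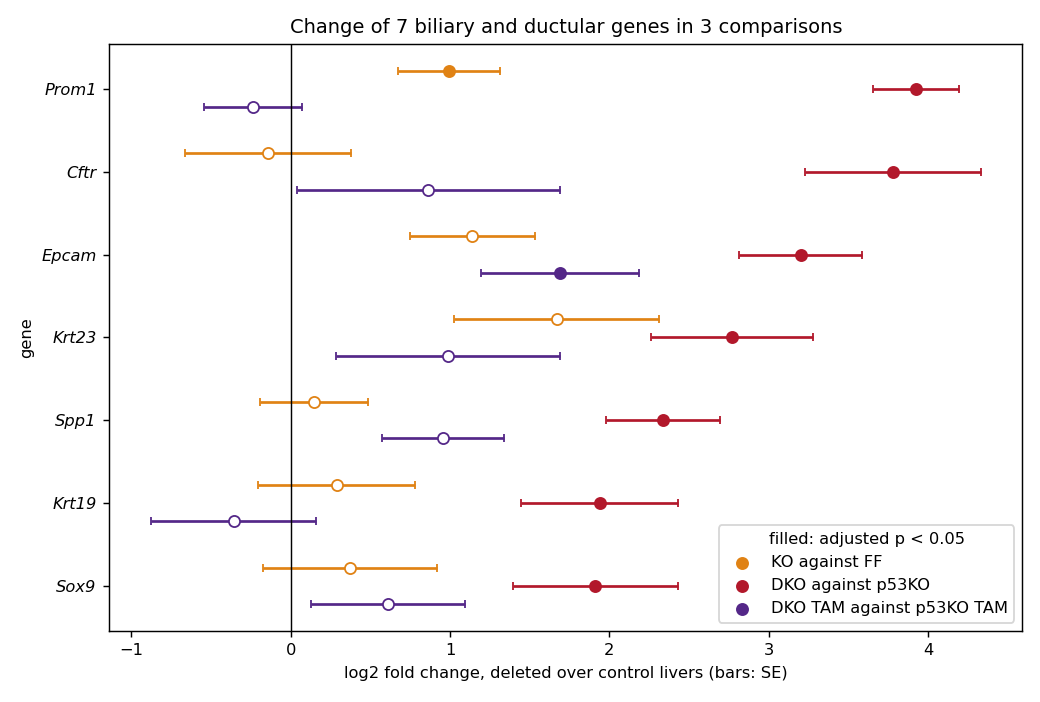
Log2 fold change with its standard error (bars) of 7 members in KO against FF (orange), DKO against p53KO (red) and DKO TAM against p53KO TAM (violet); filled points have an adjusted p below 0.05. Krt20 is not drawn because only a lower bound can be given and Krt7 because it was not tested. All red points lie to the right of 1.5, and the orange and violet points of each gene lie nearer to 0 than its red point.

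Whether the effect of Gdown1 loss differed between experiments was tested as an interaction, in the 7 members with reads in the groups involved. The effect in DKO exceeded the effect in KO for 4 of these members, where 9.75% of all genes were called in that direction: Cftr by 3.92 ± 0.80 on the log2 scale (adjusted p = 0.0026), Prom1 by 2.93 ± 0.46 (3.4e-04), Spp1 by 2.19 ± 0.49 (0.015) and Epcam by 2.06 ± 0.59 (0.019). For Sox9, Krt19 and Krt23 the difference was 1.54, 1.65 and 1.10, not called (adjusted p = 0.190, 0.108 and 0.421). The calls of Epcam and Spp1 were lost without DKO 3 (0.054 and 0.056), p53KO 1 (0.055 and 0.075) or p53KO 2 (0.058 and 0.052), and that of Epcam also without FF 1 (0.133). p53 status, age and experiment cannot be told apart in this contrast.

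The control groups were compared as well. In p53KO livers against FF livers 0 of the 7 tested members other than Krt20 were called by edgeR, where 0.862% of all genes were. Of these 7, 2 were lower at an unadjusted p below 0.05, and DESeq2 called 1, Spp1. Krt20 had no read in either group. Cftr averaged 0.600 ± 0.365 CPM in p53KO and 2.72 ± 1.90 CPM in FF (log2 fold change -2.15 ± 0.70, adjusted p = 0.197), and Spp1 averaged 42.1 ± 4.21 CPM in p53KO and 89.7 ± 43.5 CPM in FF (-1.08 ± 0.36, adjusted p = 0.288; 0.015 without FF 2). In the deleted livers, Cftr averaged 8.09 ± 1.15 CPM in DKO and 2.39 ± 0.977 CPM in KO, and Spp1 212 ± 14.4 CPM in DKO and 98.8 ± 25.6 CPM in KO.

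The effect in DKO also exceeded that in DKO TAM for 2 members, Prom1 by 4.16 ± 0.43 (adjusted p = 6.9e-06) and Krt19 by 2.30 ± 0.73 (adjusted p = 0.028), beside 13.4% of all genes. The other 5 differences were positive and not called: Cftr 2.91 (0.078), Krt23 1.78 (0.183), Epcam 1.51 (0.129), Spp1 1.38 (0.086) and Sox9 1.30 (0.221). The Krt19 call was lost with DESeq2 (0.061) and without DKO 2 (0.087), p53KO 1 (0.126), DKO TAM 2 (0.077) or p53KO TAM 2 (0.129). Time since deletion, the kind of Cre and tamoxifen cannot be told apart here.

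Each member's pattern over the 12 libraries was set beside those of 11294 expressed genes (11295 for Krt19) by the root mean square difference of log2 levels centred on each gene's mean. Prom1 was closest to Fam83d (0.20), Cenpi (0.30) and Itgax (0.30), the first a spindle protein gene, the second a centromere protein gene and the last an integrin gene of myeloid cells. Spp1 and Cftr were each other's nearest gene (0.35), followed for both by the glucose transporter gene Slc5a1. Epcam was nearest to Scara3, Bicc1 and Mtnr1a, and Krt23 to Vil1, Ms4a7 and Src. Sox9 was nearest to Tnfaip3, Fcgr4 and Itgam, and Krt19 to the matrix genes Srpx2 and Bgn and to Gabra3. Krt20 was nearest to Sult2a2 and Sult2a1, near-identical paralogs whose reads may be split uncertainly, and then to Mmp7. Among the genes set beside it, the nearest other member ranked 1 for Spp1 and Cftr, 10 for Epcam, 20 for Krt23 and 38 for Krt20. It ranked 143 for Prom1, 6542 for Sox9 and 7118 for Krt19. The 12 points share libraries and the high DKO pair, so the likeness is a description.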

How the data were processed

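Total RNA of whole liver (TRIZOL, column cleanup, SMARTer Stranded Total RNA kit, per the labels' protocols) was sequenced, and the authors deposited raw counts of reads per gene for each library. Per the submitters' processing notes, CASAVA 1.82, HISAT2, featureCounts and the mm10 build were used; 4 file headers name featureCounts 1.6.4 with exons grouped by gene and no strand option, and the other 8 carry no program line. Reads of overlapping genes on opposite strands may therefore not be separated; no member shares exon bases with another gene.

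All genes were fitted together in edgeR 4.0.16 (R 4.3.3; quasi-likelihood, robust, TMM scaling, filterByExpr with a minimum count of 10) as 6 group means over 12 libraries, with Benjamini-Hochberg adjustment over 13693 genes. Residual degrees of freedom were 6 and the common coefficient of biological variation was 0.124. Standard errors are the log2 fold change over the root of F. CPM and RPKM came from the counts, scaled totals and deposited exon lengths. Likeness used log2 of CPM plus 0.5 in genes whose highest group mean reached 5 CPM. Intervals and floors (3 counts) cover counting error only. Replicates of a group differed beyond sampling noise (chi-square per degree of freedom 5.98 to 16.4). DKO titles carry replicates 2 and 3, and their descriptions 1 and 2. Scripts were tested on simulated data.

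Named were all members, up to 8 genes per direction with the smallest p among called biliary or ductular genes and up to 4 of other lists, genes of cell type lists as checks, and the 3 most alike genes; not called or other genes of a list were named after their values were seen. Members and lists were chosen with earlier results of these data known. Alternatives were other scalings (RLE, upper quartile, library totals), other filters, DESeq2 1.42.0, limma-voom 3.58.1, fits of the compared libraries alone, a replicate block, stricter thresholds and leaving out each library. Results of some genes are not reported here.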

Additional observations from a re-analysis of the deposited data

Results flagged for a closer look

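Groups held 2 libraries, so no library could be tested as an outlier within its group. These results were singled out because the effect of Gdown1 loss differed between experiments by an interaction test in edgeR's quasi-likelihood fit. Between DKO (against p53KO) and KO (against FF), the log2 effect was larger by 2.06 for Epcam, 2.93 for Prom1, 2.19 for Spp1 and 3.92 for Cftr. Between DKO (against p53KO) and DKO TAM (against p53KO TAM), it was larger by 4.16 for Prom1 and 2.30 for Krt19. Prom1 kept both calls, and Cftr its call, under each scaling, filter, tool and left-out library. Macrophage, stellate cell and proliferation markers were also highest in DKO livers, and their part in these differences was not tested.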

How the results depend on the processing

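In DKO against p53KO, the 7 tested members other than Krt20 kept their direction under every alternative, and were called under each scaling, filter and tool and with the replicate block. Counted with Krt20, which the filter admitted only through DKO, 8 were called; an adjusted p under 0.01 gave 7 and leaving out 1 library 6 to 8. In KO against FF, where 1 was called, library totals gave 3, no filter 2, and DESeq2, limma-voom, only the compared libraries, an adjusted p under 0.01, a 2-fold minimum and each left-out library (range 0 to 0) gave 0. In DKO TAM against p53KO TAM, with 1 called, library totals and DESeq2 gave 2, limma-voom and an adjusted p under 0.01 gave 0, and left-out libraries 0 to 1. For the difference of effects between DKO and KO (4 called) an adjusted p under 0.01 gave 2 and left-out libraries 2 to 4. For the difference between DKO and DKO TAM (2 called), library totals, limma-voom and only the compared libraries gave 4 (with limma-voom, Krt20 among them, read at 0 to 1 counts in the other groups), an adjusted p under 0.01 gave 1, and left-out libraries 1 to 3. In p53KO against FF (0 called), DESeq2 gave 1 and left-out libraries 0 to 1.

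Turned directions concerned values that were not called. In KO against FF, Cftr was 0.11 with library totals and 0.0061 with limma-voom, and leaving out 1 library gave ranges of -0.19 to 0.79 for Sox9, -0.092 to 0.60 for Krt19, -0.29 to 0.74 for Spp1 and -0.79 to 0.76 for Cftr. After tamoxifen, Prom1 was 0.11 with library totals, and the ranges were -0.63 to 0.51 for Prom1, -0.19 to 1.14 for Sox9 and -0.97 to 0.046 for Krt19. Krt23 ranged from -3.33 to 2.54 in the difference of effects between DKO and DKO TAM, where the remaining p53KO TAM library had 0 reads, and from -0.27 to 0.60 in p53KO against FF. The causes were not tested.

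Same-numbered replicates shared only a number: deviations of the pairs correlated at 0.124, -0.083 and -0.013 over 2 pairs each. With the replicate block 1, 8 (with Krt20) and 1 members were called in the 3 comparisons of deleted with intact livers, Prom1 being lost (adjusted p = 0.052) and Epcam gained (0.044) in KO against FF, and 3 (Spp1 lost, 0.059) and 2 in the effect differences. Library totals moved the median of all genes by 0.26, 0.77 and 0.35 in these 3 comparisons. Depth limits Epcam, Krt7, Krt19, Krt20, Krt23 and Cftr, which had under 20 reads in most libraries.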
